A study of Mus musculus with 6 samples.

Results

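Dendritic cell genes were followed in biopsies of squamous lung tumours that arose in genetically engineered mice. The set was fixed by symbol: XCR1, FLT3, CLEC9A, BATF3, ZBTB46, CD209A, SIGLECH, FSCN1, CD207 and ITGAE. Of these 10 symbols, 9 had a row among the 46937 gene symbols of the count table, and no row carried the symbol CD209A. All 9 passed the filter on low counts that left 21201 genes for testing. PSCN tumours carried constitutively active PI3K (Pik3caH1047R), SOX2 overexpression, loss of CDKN2A and CDKN2B, and the NSD3T1242A mutant of the histone methyltransferase NSD3. PSC tumours carried the same first 3 alterations with NSD3 WT and served as the control. Each group held 3 libraries of total RNA, and the comparison asks what changes in tumour RNA with the mutant NSD3. The promoters and Cre lines behind the alleles, the age of the mice and whether each biopsy came from its own mouse were not stated in the labels, and any p-value below therefore reflects variation among these 6 libraries, which could be technical.

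Library totals were between 70979353 and 72807077 in PSCN and between 69563622 and 72281119 in PSC. NSD3 stood at 820.7 to 1931.8 CPM (a count relative to its library's size, scaled with TMM factors) in PSCN and at 79.7 to 101.7 CPM in PSC, so the libraries followed their labels. PSCN thus differed from PSC in the level of NSD3 RNA as well as in its allele, and these cannot be told apart here. The basal squamous keratin KRT5 stood at 3487.3, 7318.9 and 2677.8 CPM in PSCN libraries 1 to 3 and at 52.1, 575.2 and 2035.1 CPM in PSC libraries 1 to 3. PSC library 1 was thus low for a defining squamous marker. Summed over 8 airway genes, the level was 592.8 to 1956.8 CPM in PSCN, and 27429.4, 18050.1 and 2796.3 CPM in PSC libraries 1 to 3. PSC library 3 stood apart from its group: its mean correlation of log2 CPM across genes came to 0.941 against the PSCN libraries and 0.908 against PSC libraries 1 and 2 (genes within a library are not independent). XIST, the female transcript, was at or below 2.4 CPM in all PSCN libraries and in PSC library 1, against 1087.9 CPM in PSC library 2 and 1033.9 CPM in PSC library 3, so all PSCN libraries and PSC library 1 came from male mice.

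Dendritic cells take up antigen in tissue, carry it to lymph nodes and present it to T cells. Conventional type 1 cells (cDC1) depend on the transcription factor BATF3, recognise dead cells through CLEC9A, respond to the chemokine XCL1 through XCR1, and specialise in presenting captured antigen to CD8 T cells. In mouse lung, cDC1 also bear the integrin chain ITGAE (CD103) and the lectin langerin, encoded by CD207. FLT3 is the cytokine receptor on which dendritic cells and their precursors depend, ZBTB46 is a transcription factor of the conventional lineage, SIGLECH marks plasmacytoid dendritic cells, and the actin bundler FSCN1 is switched on as dendritic cells mature.

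The stretches of 250 bases before the starts of XCR1, FLT3 and CD207 are shown because these members had the smallest p-values of the set. The sequences are RefSeq's, in build GRCm38.p6, written on the gene's own strand, and capitals mark motif matches. XCR1 was read from chr9:123862030-123862279 (minus strand), FLT3 from chr5:147400490-147400739 (minus strand) and CD207 from chr6:83677858-83678107 (minus strand).
XCR1: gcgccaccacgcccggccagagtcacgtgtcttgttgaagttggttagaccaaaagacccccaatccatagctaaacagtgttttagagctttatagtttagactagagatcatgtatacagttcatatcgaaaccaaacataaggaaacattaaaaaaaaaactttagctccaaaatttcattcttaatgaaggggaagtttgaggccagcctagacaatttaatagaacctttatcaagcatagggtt
FLT3: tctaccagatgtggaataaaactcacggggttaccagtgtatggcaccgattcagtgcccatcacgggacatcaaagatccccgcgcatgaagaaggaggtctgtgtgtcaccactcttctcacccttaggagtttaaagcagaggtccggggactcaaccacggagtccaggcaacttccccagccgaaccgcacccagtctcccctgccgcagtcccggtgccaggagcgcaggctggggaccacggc
CD207: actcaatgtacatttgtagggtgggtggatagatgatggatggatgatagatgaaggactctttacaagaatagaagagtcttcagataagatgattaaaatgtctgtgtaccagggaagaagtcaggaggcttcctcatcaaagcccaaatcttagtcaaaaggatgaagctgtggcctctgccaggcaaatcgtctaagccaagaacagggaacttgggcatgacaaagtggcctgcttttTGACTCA
Both strands were searched for TGANTCA, the AP-1 type site that BATF-family dimers bind, for GAAA followed by any 2 bases and GAAA again, a repeat bound by interferon regulatory factors, and for GAGGAAGT, a site of the PU.1 type. Of 32851 such stretches from all RefSeq promoters in the table, 6.75% held TGANTCA, 2.98% held the GAAA repeat and 2.44% held GAGGAAGT. CD207 had 1 TGANTCA match, in the last bases before its start, and ZBTB46 had 1 as well. The other 6 members with a sequence (XCR1, FLT3, CLEC9A, BATF3, SIGLECH and FSCN1) had 0 matches to these letters. The stretches of ZBTB46 (chr2:181424389-181424638) and BATF3 (chr1:191098164-191098413) lie inside the gene spans given below, not before them. A match describes the letters and is not a measured binding site.

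XCR1, FLT3, CD207, ITGAE and SIGLECH had PSCN values that all lay below the lowest PSC value. The remaining 4 members overlapped between the groups, and FSCN1 was the member with a positive fold change. In the fit across all genes with edgeR's quasi-likelihood test, 0 of 9 members passed an adjusted p of 0.05, where 0.00472% of all genes tested did. At an unadjusted p of 0.05, 5 of 9 members were lower and 0 higher, against 12.2% of all genes lower and 9.48% higher (21.6% in either direction). The 5 members without overlap compare with 13.4% of all genes lying below in the same way. Over the 9 members the median log2 fold change of PSCN over PSC was -1.20, with 8 negative, beside a median of -0.01 and 50.9% negative over all genes tested. In a bulk biopsy, fewer cells of a type and less RNA per cell cannot be told apart.

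**Figure D1:**
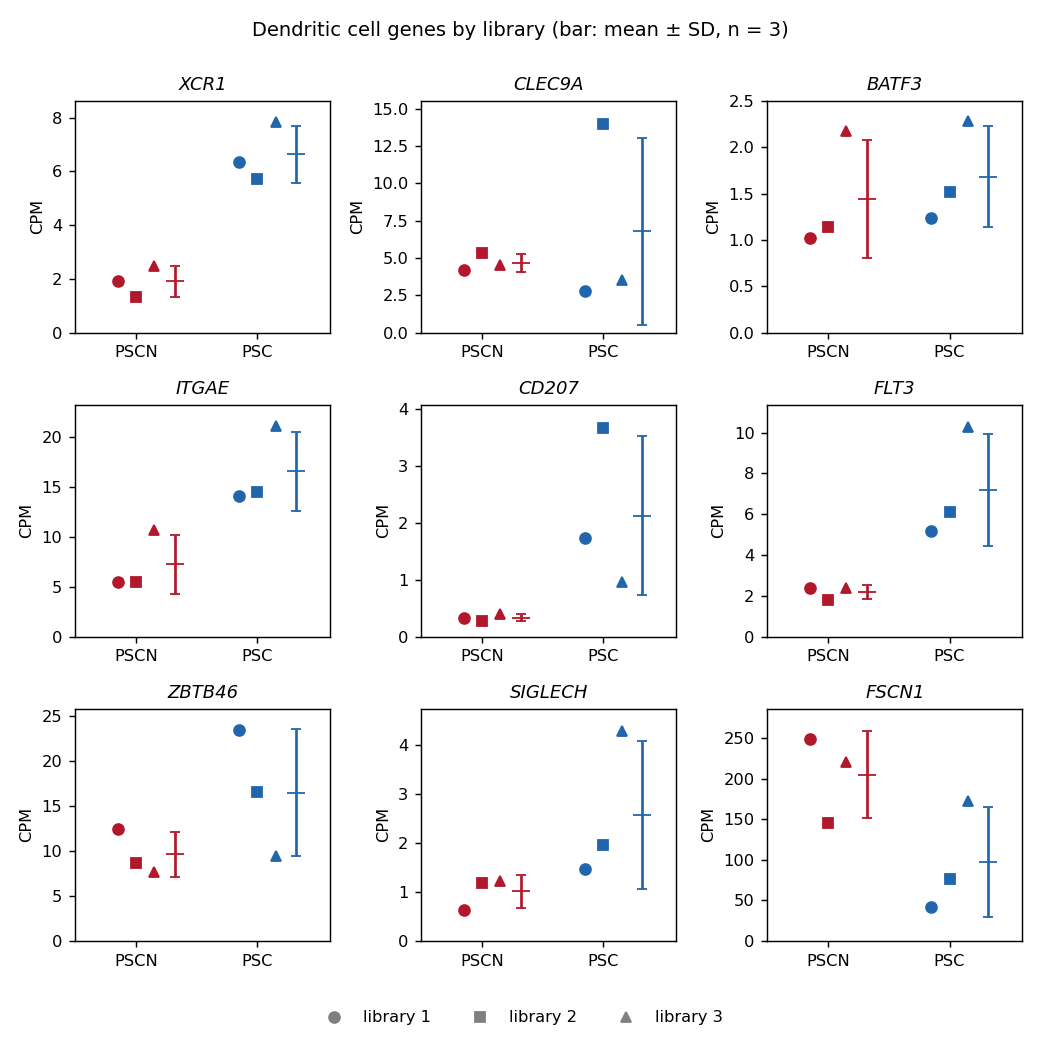
CPM (vertical axis, linear) of the 9 dendritic cell genes in each PSCN library (red) and PSC library (blue), with the mean and SD of 3 libraries beside the points. For XCR1, FLT3, CD207, ITGAE and SIGLECH every PSCN point lies below every PSC point, while CLEC9A has 1 high point, PSC library 2 at 14.0 CPM.

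XCR1 (ENSMUSG00000060509.4; GRCm38 chromosome 9, 123852315 to 123862029) is the chemokine receptor that marks cDC1. It had 131, 87 and 178 counts in PSCN libraries 1 to 3, and 469, 434 and 574 counts in PSC libraries 1 to 3. As CPM these were 1.91, 1.34 and 2.48 in PSCN, against 6.33, 5.73 and 7.82 in PSC. The highest PSCN library lay below the lowest PSC library, and the spread within each group was small beside the gap: 1.91 ± 0.57 CPM in PSCN and 6.63 ± 1.08 CPM in PSC (SD, n = 3 each). The log2 fold change was -1.79 (SE 0.33; adjusted p = 0.171 with edgeR). It ran from -2.05 to -1.63 when each library was left out in turn.

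FLT3 (ENSMUSG00000042817.15; chromosome 5, 147330741 to 147400489), the receptor for the growth factor FLT3 ligand, stood at 2.39, 1.79 and 2.40 CPM in PSCN libraries 1 to 3, and at 5.17, 6.12 and 10.3 CPM in PSC libraries 1 to 3. The PSCN libraries were close to each other, while PSC library 3 was highest. PSCN over PSC gave a log2 fold change of -1.71 (SE 0.36; adjusted p = 0.175 with edgeR). Without PSC library 3 it was -1.35 (SE 0.29; adjusted p = 0.0543 with edgeR).

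CD207 (ENSMUSG00000034783.7; chromosome 6, 83671215 to 83677857) encodes langerin, a lectin of Langerhans cells and of mouse lung cDC1. It had the lowest counts of the set in PSCN, at 23, 18 and 28, against 128, 279 and 71 in PSC libraries 1 to 3. The levels were 0.335, 0.278 and 0.391 CPM in PSCN, and 1.73, 3.68 and 0.967 CPM in PSC. PSC library 2 was high, and PSC library 3 lay nearest to PSCN. The log2 fold change of -2.66 (SE 0.58) was the largest in size of the set (adjusted p = 0.178 with edgeR). Without PSC library 3 it was -2.99 (SE 0.46) and passed (adjusted p = 0.0403 with edgeR) in that fit, where 5.4% of all genes passed as lower and 3.39% as higher (8.8% in all). Without PSC library 2 it was -2.00 (SE 0.46; adjusted p = 0.438 with edgeR). The summed level of 8 alveolar genes was 2458.6, 2841.9 and 2940.8 CPM in PSCN, and 6535.7, 11651.9 and 1567.1 CPM in PSC libraries 1 to 3. CD207 had the same order as this sum within PSC and another order within PSCN, and the part of alveolar content in its difference was not tested.

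ITGAE (ENSMUSG00000005947.11; chromosome 11, 73090583 to 73147446) encodes the integrin chain CD103, which pairs with beta 7 integrin and is carried by cDC1 and by tissue-resident T cells. It stood at 5.50, 5.53 and 10.7 CPM in PSCN libraries 1 to 3, and at 14.1, 14.5 and 21.1 CPM in PSC libraries 1 to 3. Library 3 was the highest of its group in each genotype. The fitted log2 fold change was -1.20 (SE 0.35; adjusted p = 0.191 with edgeR). All 11 T cell markers tested also had negative fold changes, with a median of -1.01, and their summed level was 36.0, 42.9 and 100.9 CPM in PSCN and 64.2, 89.5 and 192.6 CPM in PSC. T cells were thus detected in every library, and their part in the ITGAE value was not tested. HASPIN lies within ITGAE on the opposite strand and shares 0 exonic bases with it. Its level was 9.52 to 11.2 CPM in PSCN and 4.78 to 9.58 CPM in PSC.

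SIGLECH (ENSMUSG00000051504.18; chromosome 7, 55768178 to 55778925), a sialic acid-binding receptor of plasmacytoid dendritic cells, stood at 0.627, 1.19 and 1.23 CPM in PSCN libraries 1 to 3, and at 1.46, 1.95 and 4.28 CPM in PSC libraries 1 to 3. The groups were separated by a narrow gap, and PSC library 3 alone was above 2 CPM. On the log2 scale the fold change was -1.33 (SE 0.54; adjusted p = 0.226 with edgeR). Without PSC library 3 it was -0.74 (SE 0.44; adjusted p = 0.296 with edgeR), so that library moved the value by more than 1.5 times. With sex as a covariate it was -0.52 (SE 0.67; adjusted p = 0.673 with edgeR).

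CLEC9A (ENSMUSG00000046080.17; chromosome 6, 129408862 to 129424763), the receptor by which cDC1 sense dead cells, did not follow XCR1. It stood at 4.16, 5.33 and 4.52 CPM in PSCN libraries 1 to 3, and at 2.78, 14.0 and 3.54 CPM in PSC libraries 1 to 3. PSC library 2 stood far above the rest, and PSC libraries 1 and 3 lay below every PSCN library. The log2 fold change was -0.54 (SE 0.65; adjusted p = 0.644 with edgeR), and 0.56 (SE 0.33; adjusted p = 0.513 with edgeR) without PSC library 2. CLEC9A shares 184 exonic bases with CLEC1B on the same strand, so their reads may not be separable there.

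BATF3 (ENSMUSG00000026630.9; chromosome 1, 191097847 to 191108945), the factor on which cDC1 depend and which activated T cells also make, stood at 1.02, 1.14 and 2.18 CPM in PSCN libraries 1 to 3, and at 1.24, 1.52 and 2.29 CPM in PSC libraries 1 to 3. The ranges overlapped almost fully. Its log2 fold change was -0.22 (SE 0.44; adjusted p = 0.788 with edgeR), and 0.08 (SE 0.46; adjusted p = 0.921 with edgeR) without PSC library 3. IRF8, the partner factor in cDC1 development, stood at 32.1 to 68.4 CPM in PSCN and 45.9 to 92.0 CPM in PSC, with a log2 fold change of -0.43 (SE 0.38; adjusted p = 0.520 with edgeR).

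ZBTB46 (ENSMUSG00000027583.13; chromosome 2, 181387762 to 181459426), which endothelial cells express as well as conventional dendritic cells, stood at 12.5, 8.67 and 7.72 CPM in PSCN libraries 1 to 3, and at 23.5, 16.6 and 9.43 CPM in PSC libraries 1 to 3. PSC library 3 lay among the PSCN libraries. Its log2 fold change was -0.78 (SE 0.39; adjusted p = 0.290 with edgeR), and -0.43 (SE 0.37; adjusted p = 0.614 with edgeR) without PSC library 1. With sex as a covariate it was -1.28 (SE 0.44; adjusted p = 0.211 with edgeR). Within each group the order of ZBTB46 was that of the summed level of 8 endothelial genes, at 746.0, 627.8 and 431.6 CPM in PSCN libraries 1 to 3 and 1700.1, 981.8 and 307.4 CPM in PSC libraries 1 to 3. The part of endothelial cells in this value was not tested.

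FSCN1 (ENSMUSG00000029581.14; chromosome 5, 142960343 to 142973185), the fascin that bundles actin in mature dendritic cells and also in many carcinoma cells, stood at 248.8, 145.8 and 221.0 CPM in PSCN libraries 1 to 3, and at 42.0, 76.7 and 173.1 CPM in PSC libraries 1 to 3. PSC library 3 lay within the PSCN range. The fitted log2 fold change was 1.08 (SE 0.53; adjusted p = 0.287 with edgeR). Without PSC library 3 it was 1.80 (SE 0.38; adjusted p = 0.0526 with edgeR), and without PSC library 1 it was 0.72 (SE 0.43; adjusted p = 0.503 with edgeR). With sex as a covariate it was 2.29 (SE 0.62; adjusted p = 0.183 with edgeR). Within PSC, though not within PSCN, the order of FSCN1 was that of KRT5 and of the squamous regulator TP63, which stood at 198.3, 240.2 and 194.7 CPM in PSCN and 10.4, 80.2 and 194.9 CPM in PSC libraries 1 to 3. Summed over 8 fibroblast genes, the level was 42985, 2021.5 and 1272.7 CPM in PSCN libraries 1 to 3. In PSC libraries 1 to 3 that sum was 3012.8, 1561.5 and 4189.4 CPM. PSCN library 1 thus stood apart in this sum, and FSCN1 was highest there. The parts of squamous cells and of fibroblasts in the FSCN1 value were not tested.

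**Figure D2:**
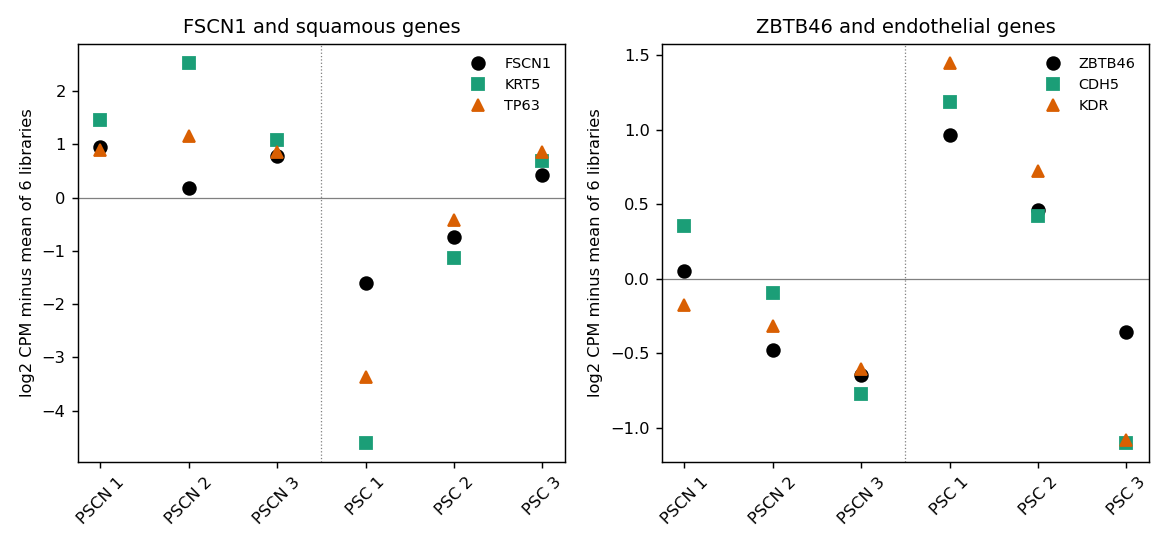
Log2 CPM minus the gene's mean over the 6 libraries (vertical axis) for FSCN1 with 2 squamous genes (left) and ZBTB46 with 2 endothelial genes (right), by library. FSCN1 is lowest in PSC library 1 at 42.0 CPM, where KRT5 and TP63 are lowest too, and ZBTB46 is highest there at 23.5 CPM, where CDH5 and KDR are highest.

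**Figure D3:**
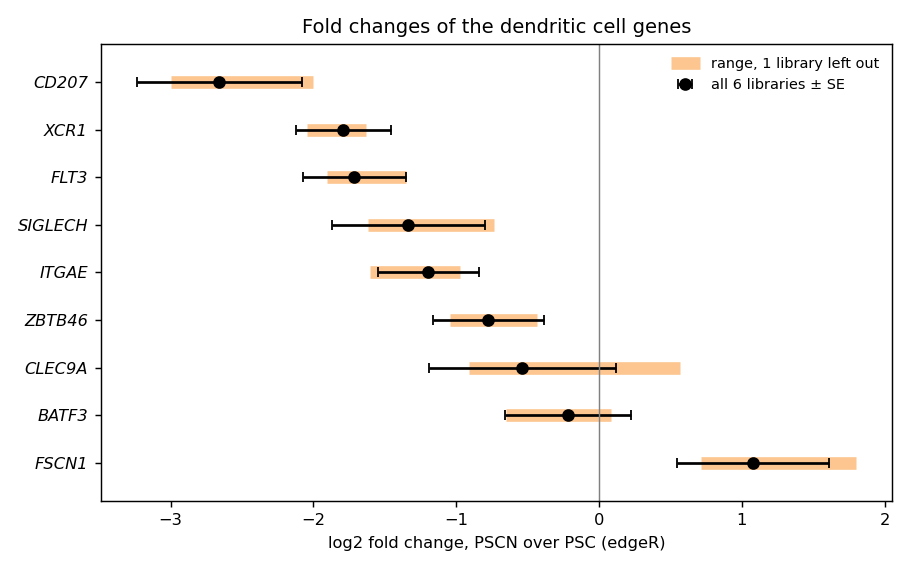
Log2 fold change of PSCN over PSC (horizontal axis) for the 9 genes with its SE (black) and the range when 1 library is left out (orange). The ranges of CD207, XCR1, FLT3, SIGLECH, ITGAE and ZBTB46 (-1.04 to -0.43) stay below 0, and that of FSCN1 stays above it. Those of CLEC9A (-0.91 to 0.56) and BATF3 (-0.65 to 0.08) cross 0.

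Levels were compared between members per length, as CPM per kilobase of exonic sequence in GENCODE M21. FSCN1 was far above the rest, at 68.1 ± 17.7 in PSCN and 32.3 ± 22.5 in PSC (SD, n = 3 each). ITGAE came next, at 1.58 ± 0.65 CPM per kilobase in PSCN and 3.62 ± 0.859 in PSC. CLEC9A (1.42 ± 0.183), ZBTB46 (1.13 ± 0.298) and BATF3 (0.906 ± 0.398) followed in PSCN and did not differ from their neighbours in that order beyond their spread. XCR1 was at 0.43 ± 0.128 CPM per kilobase in PSCN, near FLT3 at 0.355 ± 0.0564 and SIGLECH at 0.3 ± 0.0994, and CD207 was last at 0.22 ± 0.037. In PSC the order after ITGAE was CLEC9A (2.06 ± 1.9), ZBTB46 (1.94 ± 0.825), XCR1 (1.49 ± 0.242), CD207 (1.4 ± 0.92), FLT3 (1.17 ± 0.442), BATF3 (1.05 ± 0.34) and SIGLECH (0.757 ± 0.445), and the SD ranges of neighbours overlapped. By its mean, BATF3 stood above XCR1 and FLT3 in PSCN and below them in PSC.

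The count tools differed in their calls. DESeq2 on the same genes called 4 members lower in PSCN: XCR1 (log2 fold change -1.79, SE 0.32, adjusted p = 1.76e-06), FLT3 (adjusted p = 0.00013), CD207 (adjusted p = 0.000719) and ITGAE (adjusted p = 0.0225). It called 9.09% of all genes lower and 5.58% higher (14.7% in all). In the authors' deposited table the log2 fold change was -1.797 for XCR1 (adjusted p = 6.42e-06), -1.717 for FLT3 (adjusted p = 0.000233), -2.675 for CD207 (adjusted p = 0.000732) and -1.197 for ITGAE (adjusted p = 0.0298). That table called 8.1% of genes lower and 3.92% higher (12% in all). Limma-voom with quality weights called XCR1 and FLT3 (adjusted p = 0.0357 each) and CD207 (adjusted p = 0.0364) lower and FSCN1 (log2 fold change 1.47, adjusted p = 0.0494) higher, where 5.84% of all genes were lower and 8.43% higher (14.3% in all). Its weight for PSC library 3 was 0.364, and without quality weights it called 0 members and 0 genes. With sex as a covariate, edgeR gave -1.73 for XCR1 (SE 0.47; adjusted p = 0.183) and -1.24 for FLT3 (SE 0.44; adjusted p = 0.221). It gave -2.36 for CD207 (SE 0.75; adjusted p = 0.199) and -0.96 for ITGAE (SE 0.50; adjusted p = 0.329). In that edgeR fit, the unadjusted p of ITGAE (0.108) and SIGLECH (0.469) was above 0.05. That of ZBTB46 (0.0319) and FSCN1 (0.0135) was below it. Among male libraries alone, XCR1 was at 1.34 to 2.48 CPM in PSCN and 6.33 CPM in PSC library 1, the single male PSC library, so the value within males has no spread for PSC.

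The members were set against the leukocyte content of each biopsy through PTPRC (CD45), which all leukocytes carry, a measure chosen after the data were seen. PTPRC stood at 70.5, 57.8 and 115.5 CPM in PSCN libraries 1 to 3, and at 88.6, 97.9 and 156.3 CPM in PSC libraries 1 to 3, with a log2 fold change of -0.49 (SE 0.34). Per 1000 PTPRC counts, XCR1 had 27.1, 23.3 and 21.5 counts in PSCN libraries 1 to 3 and 71.4, 58.5 and 50.0 in PSC libraries 1 to 3. FLT3 had 33.9, 31.0 and 20.8 in PSCN and 58.3, 62.6 and 65.9 in PSC. ITGAE had 78.0, 95.7 and 92.4 in PSCN and 159.3, 148.0 and 135.0 in PSC. These genes and CD207 stayed below PSC in every PSCN library on this scale, as did 3.14% of all genes tested. The gap was narrow for CD207, at 3.38 to 4.81 in PSCN and 6.19 to 37.6 in PSC. SIGLECH overlapped on this scale (8.89 to 20.6 in PSCN and 16.5 to 27.4 in PSC), and BATF3 was nearly level at 14.5 to 19.8 in PSCN and 14.0 to 15.5 in PSC. FSCN1 had 1914.1 to 3529.5 in PSCN and 474.3 to 1107.2 in PSC, and 22.2% of all genes lay above in that way.

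**Figure D4:**
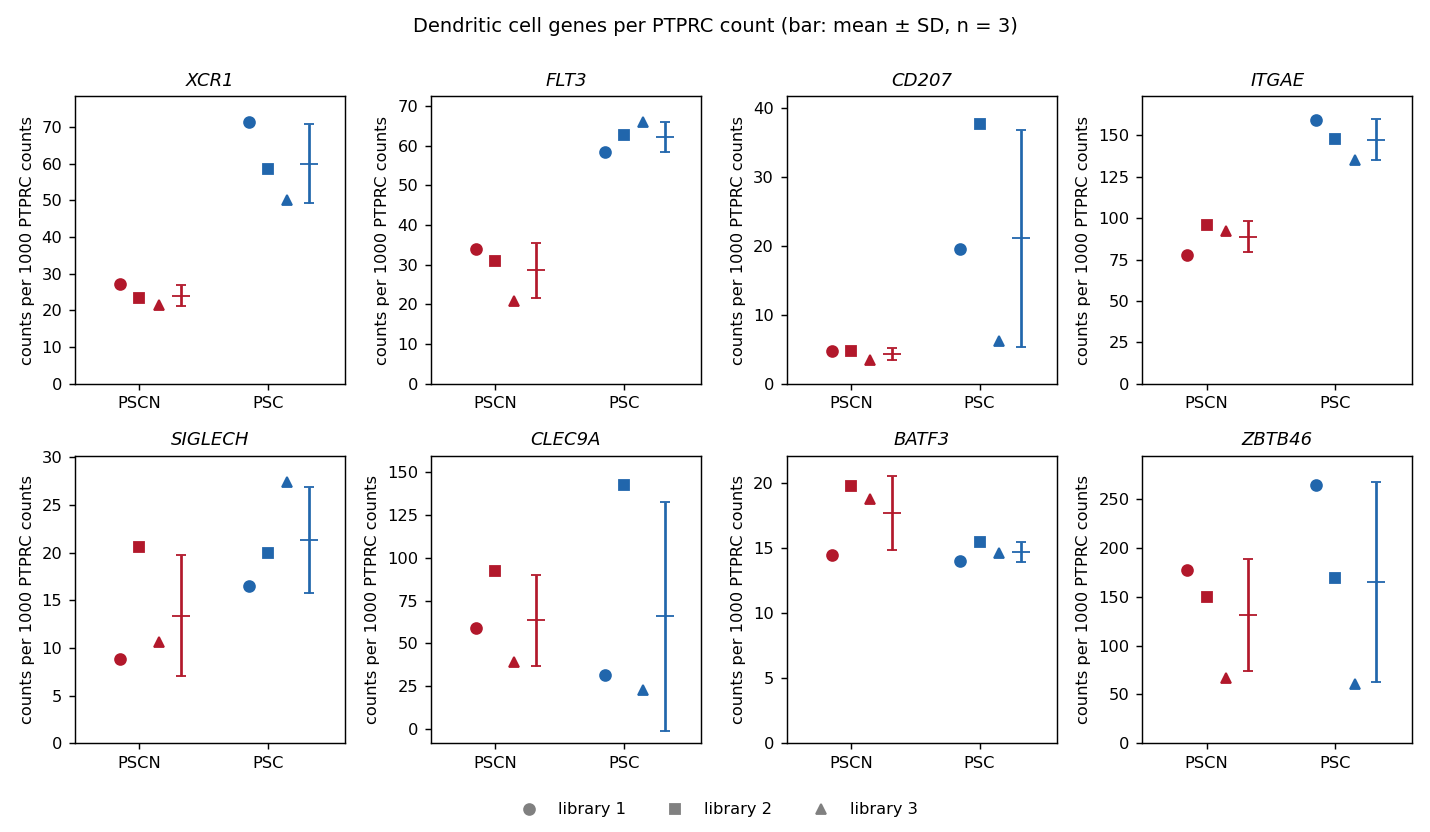
Counts per 1000 PTPRC counts (vertical axis) of 8 dendritic cell genes by library, PSCN in red and PSC in blue, with mean and SD of 3 libraries. XCR1 lies at 21.5 to 27.1 in PSCN and at 50.0 to 71.4 in PSC, and BATF3 overlaps between the groups.

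Other genes of cDC1 lay on both sides of 0, as 5 positive and 6 negative fold changes. Of 11 besides the members, 3 were lower and 1 higher at an unadjusted p of 0.05, against 12.2% and 9.48% of all genes. The median log2 fold change was -0.03, and 0 passed the adjusted threshold in edgeR. The part of other cells in this median was not tested. WDFY4, which cDC1 need for cross-presentation, stood at 16.9, 14.9 and 21.3 CPM in PSCN and 45.3, 49.7 and 72.5 CPM in PSC (log2 fold change -1.66, SE 0.25; adjusted p = 0.137 with edgeR). The groups did not overlap. TLR11, a receptor for profilin of parasites, was at -1.91 (SE 0.60) and the amidase NAAA at -0.59 (SE 0.14), while the late endosome GTPase RAB7B was at 0.75 (SE 0.27). Among 10 further genes of dendritic cells in general, the median log2 fold change was -0.42. At an unadjusted p of 0.05, where 12.2% of all genes were lower, 3 were lower. They were the peptidase DPP4 (-2.33, SE 0.34), the kynurenine enzymes KMO (-1.83, SE 0.29) and HAAO (-1.48, SE 0.52), none of which passed (adjusted p = 0.137 for DPP4, 0.138 for KMO and 0.200 for HAAO with edgeR). Without PSCN library 3, HAAO was at -2.11. DPP4 is also made by epithelial cells and T cells. By Pearson correlation of log2 CPM over the 6 libraries, WDFY4 (0.985) and KMO (0.985) were the 2 listed genes most like XCR1, and the same 2 were most like FLT3 (0.989 for WDFY4 and 0.974 for KMO). CLEC9A was most like the macrophage genes SIGLEC1 (0.86) and MRC1 (0.817), and ITGAE was most like HLA-DOB (0.988) and the T cell kinase LCK (0.978). BATF3 was most like the T cell gene CD8B (0.98) and IL4I1 (0.958), SIGLECH most like CD4 (0.977) and CCL19 (0.946), and CD207 most like SIRPA (0.981) and SFTPD (0.97). ZBTB46 was most like CXCL12 (0.984) and CD200 (0.95), and FSCN1 most like RBPJ (0.962) and TNFRSF9 (0.945). These coefficients describe 6 libraries that differ in cell content. They include the gap between PSCN and PSC, so genes that differ between the groups can correlate through that gap alone. Each is 1 of the 2 highest among all listed genes tested.

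For 10 genes listed for type 2 conventional cells (cDC2), which present antigen to CD4 T cells, the median log2 fold change was -0.64. At an unadjusted p of 0.05, where 12.2% of all genes were lower and 9.48% higher, 0 were higher and 5 lower. They were the Notch target DTX1 (-2.57, SE 0.24), HEPACAM2 (-2.68, SE 0.38), the factor IRF4 (-1.82, SE 0.49), the inhibitory receptor SIRPA (-0.88, SE 0.27) and the lectin CLEC10A (-0.79, SE 0.29). Without PSC library 2, SIRPA was at -0.55. Their adjusted p was 0.137 for DTX1 and HEPACAM2, 0.188 for IRF4 and 0.192 for SIRPA with edgeR. Among 14 plasmacytoid genes besides SIGLECH, 3 were lower and 1 higher at that level, beside 12.2% and 9.48% of all genes. The median of the 14 was -0.05. The lower ones were the factor SPIB (-2.32, SE 0.72), the chemokine receptor CCR9 (-1.75, SE 0.59) and COX6A2 (-4.72, SE 1.70), and the higher one was RUNX2 (1.37, SE 0.54). COX6A2 rested on PSC library 1, with 0.496, 0.479 and 0.363 CPM in PSCN and 33.7, 1.35 and 0.422 CPM in PSC, and was at -0.99 without that library. Without PSC library 3, SPIB was at -1.44 and CCR9 at -1.13, and without PSCN library 1 RUNX2 was at 0.71. SPIB and IRF4 are also B cell genes. For all 7 B cell markers the highest PSCN library lay below the lowest PSC library, as for 13.4% of all genes tested. Their summed level was 7.73, 17.1 and 24.4 CPM in PSCN and 135.4, 62.5 and 232.8 CPM in PSC. The part of B cells in all these cDC2 and plasmacytoid values, and in those of WDFY4 above and CCR7 below, was not tested. Within PSC, though not within PSCN, SIRPA had the order of the alveolar sum above (90.1, 143.4 and 72 CPM in PSC libraries 1 to 3). The part of other cells in the values of these 2 lists, COX6A2 included, was not tested either.

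Among genes of maturing and migrating dendritic cells besides FSCN1, 8 fold changes were positive and 11 negative, beside 50.9% negative over all genes tested. Of these 19 genes, 4 were lower and 0 higher at an unadjusted p of 0.05, beside 12.2% and 9.48% of all genes. The median log2 fold change of the 19 was -0.23. CCR7, the receptor that guides mature cells to lymph nodes, stood at 4.17, 3.79 and 5.79 CPM in PSCN libraries 1 to 3 and at 6.95, 8.51 and 14.9 CPM in PSC libraries 1 to 3 (log2 fold change -1.14, SE 0.37; adjusted p = 0.195 with edgeR). Every PSCN library lay below every PSC library, and the value was -0.74 without PSC library 3. CCL17, a chemokine of such cells, was at -1.98 (SE 0.56) and at -2.61 without PSCN library 3, and the cytokine signalling inhibitor SOCS2 at -0.83 (SE 0.24). SOCS2 had a mean of 136.3 CPM in PSCN and 243 CPM in PSC, beside 4.58 and 10.1 CPM for CCR7. The part of other cells in the SOCS2 value was not tested. LAMP3, at -1.44 (SE 0.58), is also a gene of alveolar type 2 cells, whose surfactant protein SFTPD was at -1.46 (SE 0.34). LAMP3 stood at 58.9, 69.2 and 90.9 CPM in PSCN and 152.2, 368.8 and 73.4 CPM in PSC, and its log2 fold change was -0.63 without PSC library 2. In the list for Langerhans cells, 7 genes besides CD207 had a median of 0.18, and 0 had an unadjusted p of 0.05 or less in edgeR. They include CDH1 (mean 1138 CPM in PSCN and 976.5 in PSC) and EPCAM (548.5 and 450.6 CPM), beside 0.335 and 2.13 CPM for CD207. The part of other cells in that median was not tested.

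Antigen presentation by MHC class II had 9 rows, with a median log2 fold change of -0.63. Of these, 8 were negative, beside 50.9% of all genes, and 1 was lower at an unadjusted p of 0.05, beside 12.2%. HLA-DOB, the row for a chain of the peptide-loading modulator that B cells and cDC1 use, was at -2.13 (SE 0.69; adjusted p = 0.195 with edgeR). CIITA, the master regulator of class II, was at -1.07 (SE 0.63), and at -0.31 without PSC library 3 and -0.13 with sex as a covariate. HLA-DOB was at -1.48 without PSC library 3 and -2.96 without PSCN library 3. Among the 12 ligands and recruiting factors tested, the median was 0.16. XCL1, the ligand of XCR1, stood at 0.977, 0.263 and 2.39 CPM in PSCN libraries 1 to 3 and at 0.297, 0.792 and 2.18 CPM in PSC libraries 1 to 3, a log2 fold change of 0.15 (SE 0.98). Its groups overlapped fully, unlike those of its receptor. CXCL12 (-1.79, SE 0.61) and the lymph node chemokine CCL19 (-3.29, SE 1.25) had an unadjusted p under 0.05 and adjusted p = 0.197 and 0.214 with edgeR. CCL19 had 2, 3 and 15 counts in PSCN and 18, 20 and 172 counts in PSC, and was at -1.38 without PSC library 3. CXCL12 was at -1.12 without PSC library 1. The other 9 lay between -0.54 (CCL5, SE 0.74) and 0.52 (CCL4, SE 0.98), and CCL4 ran from 0.05 to 2.33 with each library left out.

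The median log2 fold change was negative, as for XCR1, in each list of other leukocytes except the neutrophil genes. It was -0.30 over 8 general leukocyte genes, -1.01 over 11 T cell genes and -3.33 over 7 B cell genes. The summed level of 12 macrophage genes was 1062.7, 427.8 and 939.7 CPM in PSCN and 430.0, 723.0 and 1088.7 CPM in PSC, with a median log2 fold change of -0.18 and 0 genes at an unadjusted p of 0.05 in edgeR. That of 8 neutrophil genes was 215.5, 682.1 and 1109.1 CPM in PSCN and 39.4, 69.1 and 458.2 CPM in PSC, with a median of 1.65 over 7 tested. Monocyte genes had a median of -0.57 (75.1 to 191.3 CPM in PSCN and 137.2 to 171.5 CPM in PSC), and NK cell genes -1.02 (13.8 to 46.4 CPM in PSCN and 15.3 to 93.5 CPM in PSC). The 6 mast cell genes summed to 0.0292 to 0.216 CPM in PSCN and 2.39 to 4.4 CPM in PSC, with a median of -5.88 over 4 tested. Of 10 ribosomal protein genes, 10 were positive with a median of 0.80, and of 8 immediate early genes 8 were positive with a median of 0.65. Both lists were drawn up with RNA quality in mind, but they hold expression levels and do not measure it. The part of RNA quality in the members' values was not tested.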

How the data were processed

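Total RNA of 6 tumour biopsies was sequenced from stranded libraries with reads of 76 nt, per the labels' protocols. The submitters' processing notes list GRCm38 and, with no version, the programs DESeq2, StringTie, HISAT2 and Trimmomatic. Strand settings of the counting are not given in the sources used here. The authors deposited estimated counts per gene symbol, already whole numbers. They also deposited DESeq2's mean normalized signal, log2 fold changes (PSCN over PSC), their standard errors, the Wald statistic (a score) and p-values with adjusted p-values. The mean recomputed here differed from the deposited signal by at most 0.0005 for the symbols found in both tables. Some symbols follow human naming, and columns were matched to labels by letter and number. 14 list genes were read from rows with human-style symbols.

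The main test was quasi-likelihood in edgeR 4.0.16 (R 4.3.3) on genes kept by filterByExpr, after TMM scaling. P-values were adjusted by Benjamini-Hochberg over all genes tested, and 0.05 was the threshold. Each SE was derived from the fold change and its F statistic. Log2 CPM used a prior count of 2. Alternatives used DESeq2 1.42.0 and limma 3.58.1. The fits were tested on simulated data. No exact permutation test was run, since 3 against 3 libraries allow no p under 0.1 (two-sided). Libraries carried no molecular identifiers that the labels mention. Named genes were the members, up to 4 genes with the smallest p of each dendritic cell list, all ligands, up to 2 genes of each list of another cell type, and the 2 listed genes most correlated with each member. KRT5, TP63, CDH5, XIST, HASPIN, IRF8 and CLEC10A were named after their values were seen. The members and lists were chosen with earlier results of these data known.

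The labels state no pairing of samples by replicate number. Deviations of same-numbered libraries from their group means correlated at 0.186, -0.0535 and 0.0158. With 3 libraries in each group, such values cannot exclude a pairing.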

Additional observations from a re-analysis of the deposited data

How the results depend on the processing

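The median log2 fold change of the 9 members kept its sign under every alternative run, and lay between -1.51 and -0.97 with each library left out in turn. Calls did not hold across tools. Members called numbered 4 with DESeq2, 4 with limma-voom with quality weights, and 0 to 1 with each library left out. Over all genes, against 1 gene in edgeR, there were 2960 calls with DESeq2, 3026 with limma-voom with quality weights, 0 with limma-voom without them, 3 with a filter of 1 CPM in 3 libraries, 0 with sex as a covariate and 0 to 1946 with each library left out, the last without PSC library 3. With the replicate block, which pairs libraries by their number, 0 members and 0 genes were called and the members' median was -1.24. In that check, library 1 of PSCN correlated best with its own number and libraries 2 and 3 did not.

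Signs turned for some of the genes named. BATF3 was at 0.004 with limma-voom with quality weights and 0.22 with sex as a covariate, and ran from -0.65 to 0.0817 with each library left out. CLEC9A was at 0.75 with sex as a covariate and ran from -0.91 to 0.56. With sex as a covariate, TGFBR1 was at 0.36, CCL5 at 0.32, CCL21 at -0.36, CSF2 at 0.66 and HLA-DMB at 0.0689. With each library left out, XCL1 ran from -0.83 to 1.16, CSF2 from -0.74 to 0.25, CCL5 from -1.51 to 0.14, CCL21 from -0.10 to 0.55, CCL20 from -0.53 to 0.98, EPCAM from -0.17 to 0.69 and COL1A1 from -0.67 to 3.73. CD207 could not be fitted under the filter of 1 CPM in 3 libraries, which it did not pass. The causes of these shifts were not tested. CD207 with 18 to 28 counts in PSCN and XCL1 with as few as 17 limit what depth can show.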

Other observations

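The table has rows for CD209, CD209B, CD209C, CD209D, CD209F and CD209G, whereas GENCODE M21 lists CD209A to CD209G and no gene called CD209. Which mouse gene the row CD209 stands for is not given in the files, so it was not counted as a member. It had 3, 5 and 7 counts in PSCN libraries 1 to 3 and 28, 25 and 7 counts in PSC libraries 1 to 3, and did not pass the filter on low counts. CD209F, a related lectin, had 0, 2 and 0 counts in PSCN libraries 1 to 3 and 239, 15 and 14 counts in PSC libraries 1 to 3. CD209B had 0, 5 and 7 counts in PSCN and 63, 31 and 7 counts in PSC.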
